A study of Homo sapiens with 16 samples.

Results

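The comparison set native transcription start sites, used in chromosomes, against those that K562 cells use when the same DNA is carried on a plasmid. All 250 genomic inserts of the long episomal library were taken, each with 350 positions numbered from 1 at its upstream end, so that 250 of 250 inserts are described and 215 of them had enough reads for tests on start position. K562 is a human erythroleukaemia cell line of wild-type genotype, and the reporter was an episomal plasmid library (EpiLong), of which 2 samples were read by TSS-MPRA and 2 by DNA sequencing, 4 of the 16 samples of the series. TSS-MPRA reads the capped 5 prime ends of the RNAs made from a pool of reporter plasmids, so that each read gives both its insert and the base where transcription began. Native starts came from 2 further sets of values, named csRNA, that the authors deposited in the same table. csRNA-seq reads capped small RNAs, and so shows starts of both stable and short-lived transcripts. No sample label of the series describes these 2 sets, so their cells and library preparation are not given in the sources used here, and native or plasmid template and csRNA-seq or TSS-MPRA cannot be told apart in any difference below. Nothing in the labels says that libraries of a kind came from separate cultures, so p-values measure only the spread between these libraries, which may be technical.

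RNA polymerase II begins at a few favoured bases within a core promoter, most often at a purine that follows a pyrimidine (the YR step of the initiator). Promoters with a TATA box tend to start at 1 base a fixed distance downstream of the box, whereas promoters rich in CpG often spread their starts over many bases. A reporter holds this DNA without its chromosomal neighbours, next to the sequences of its vector.

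The inserts below show the cases the results turn on, from hg38, with 40 bases before and 19 after the base where most reads began. Capitals mark the base before the start and the start itself, and the word TATAAA where it lay 22 to 36 bases before the start. PTMA and TUT1 kept their main start, ELF1 moved by 2 bp behind a TATA box, SLC39A3, ZSCAN29 and SCRN3 moved downstream, and TMEM167A moved from an upstream start to the middle of its named region.
PTMA, native and reporter, chr2:231708490-231708549, plus strand: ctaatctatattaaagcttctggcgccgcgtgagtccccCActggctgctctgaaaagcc
TUT1, native and reporter, chr11:62591504-62591563, minus strand: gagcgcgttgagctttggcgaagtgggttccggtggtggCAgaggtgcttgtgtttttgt
ELF1, native, chr13:41061365-41061424, minus strand: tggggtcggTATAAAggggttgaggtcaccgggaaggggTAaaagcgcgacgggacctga
ELF1, reporter, chr13:41061367-41061426, minus strand: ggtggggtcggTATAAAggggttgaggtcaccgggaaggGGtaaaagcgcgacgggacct
SLC39A3, native, chr19:2739998-2740057, minus strand: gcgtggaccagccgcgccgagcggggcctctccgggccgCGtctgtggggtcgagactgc
SLC39A3, reporter, chr19:2739913-2739972, minus strand: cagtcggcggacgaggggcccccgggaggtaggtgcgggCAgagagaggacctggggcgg
ZSCAN29, native, chr15:43371004-43371063, minus strand: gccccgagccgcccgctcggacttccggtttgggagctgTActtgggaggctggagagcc
ZSCAN29, reporter, chr15:43370954-43371013, minus strand: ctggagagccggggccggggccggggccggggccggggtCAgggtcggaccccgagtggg
SCRN3, native, chr2:174395755-174395814, plus strand: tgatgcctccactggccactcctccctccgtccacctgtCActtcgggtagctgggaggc
SCRN3, reporter, chr2:174395819-174395878, plus strand: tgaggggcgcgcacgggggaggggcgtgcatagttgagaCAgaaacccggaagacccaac
TMEM167A, native, chr5:83077405-83077464, minus strand: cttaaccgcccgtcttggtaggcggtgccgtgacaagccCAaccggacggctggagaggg
TMEM167A, reporter, chr5:83077333-83077392, minus strand: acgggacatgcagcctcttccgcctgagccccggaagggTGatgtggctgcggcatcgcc

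The reporter libraries were far deeper than the native ones. They held 26720416 and 25766991 RNA reads, with medians of 28706.5 and 29839 per insert, against 48762 and 57704 native reads with medians of 90 and 103. Reporter starts used positions 1 to 314 and native starts positions 19 to 320. Of the 35 inserts without a test on position, 32 had under 20 native reads in a library and 3 had under 20 reporter reads. GENCODE v44 placed the middle of 101 inserts within 500 bp of a transcript start on the same strand, 53 near a start on the opposite strand only, and 96 near none. No insert belonged to a globin or other erythroid gene of the 14 listed, nor to the 9 genes of other cell types, so these tables cannot check the cells against their markers.

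Starts were concentrated on the middle of the named region in both kinds of library, but more so natively. Averaged over the 215 inserts, the middle position took 28.5% and 28.1% of native starts and 11.2% and 11.6% of reporter starts. The window within 5 bp of it held 43.6% and 43.1% natively and 21.7% and 22.6% in the reporter, and the window within 20 bp held 63.1% and 62.4% against 39.3% and 40.9%. The middle position here is the middle base of the genomic region that names each insert, with more of the insert upstream of it than downstream, and 207 of the 250 inserts had their native main start there. The regions thus look centred on the native start, how they were chosen is not given in the sources used here, and its part in the native share at that base was not tested.

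**Figure D1:**
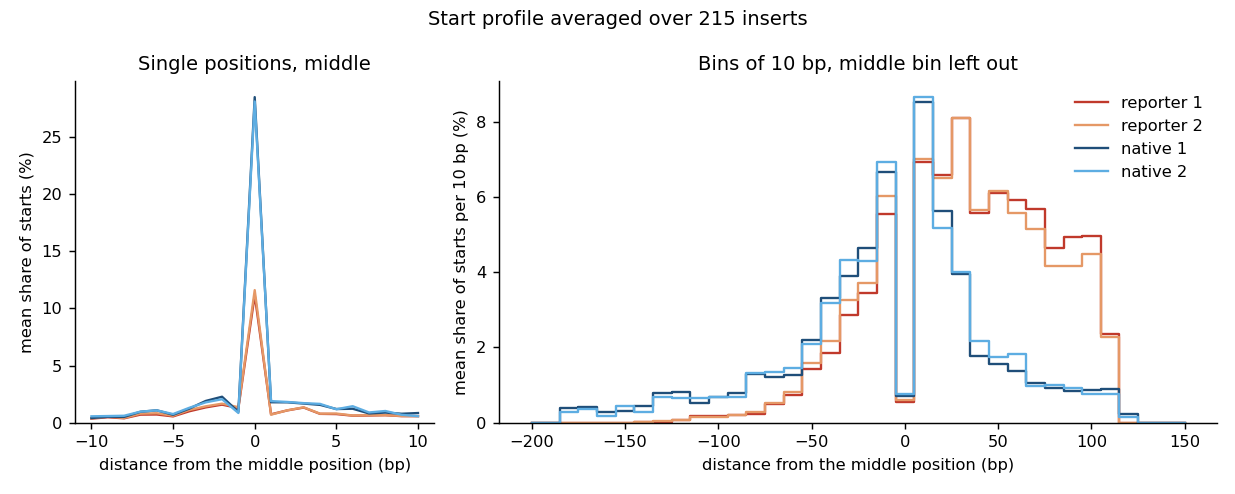
Start profile averaged over 215 inserts, as the mean share of an insert's starts (%) at single positions within 10 bp of the middle position (left) and summed in bins of 10 bp with the middle bin left out (right), against distance from the middle position. At the middle position the native libraries stand at 28.5% and 28.1% and the reporter libraries at 11.2% and 11.6%, and the reporter lines stay above the native ones from about 20 bp downstream to the last reporter position.

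Reading each main start in a library that did not choose it gave the same order. The main start of native library 1 held a median of 22.1% of the starts of native library 2, and 5.08% and 5.43% of those of the reporter libraries. The main start of reporter library 1 held 18.2% of the starts of reporter library 2, and 6.15% and 7.09% of those of the native libraries. Each kind therefore re-used its own main start more than the other kind did. In 175 of 215 inserts both native libraries placed a larger share within 5 bp of the native main start than either reporter library, although these are the libraries from which that start was read.

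The difference between whole profiles was measured as an earth mover distance, the mean number of bp by which starts must be shifted to turn one profile into the other. Between native and reporter profiles the median distance was 25.4 bp, from 3.67 to 158 bp. It was 7.24 bp between the native libraries, 3.17 bp between the reporter libraries and 4.35 bp between the barcodes of an insert. In 192 of 215 inserts (89.3%) every distance between the kinds exceeded both distances within a kind. With every profile thinned to 20 reads the median between kinds was 25.1 bp, against 11.1 bp and 10.1 bp within them, and 135 inserts (62.8%) were separate in this way.

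**Figure D2:**
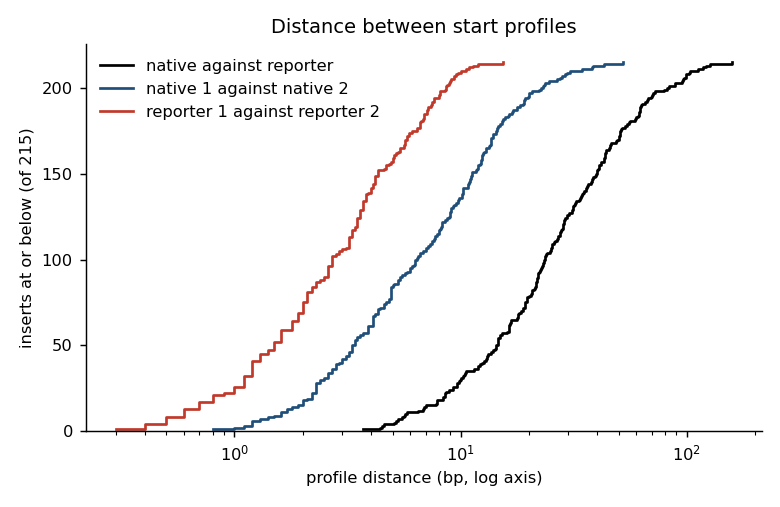
Cumulative count of inserts (of 215) against the earth mover distance between start profiles in bp, on a log axis, for native against reporter (black), the native libraries (blue) and the reporter libraries (red). The black line lies to the right of both others, with medians of 25.4, 7.24 and 3.17 bp.

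The base with most reads was the same in 64 of 215 inserts (29.8%) and within 5 bp in 83 (38.6%). Between the native libraries it was the same in 138, and between the reporter libraries in 183. The reporter main start lay downstream of the native one in 114 inserts and upstream in 37. Of the 60 inserts where they lay over 50 bp apart, 57 had the reporter start downstream and 3 upstream. Among 132 inserts moved by over 5 bp, the native main start was a YR step in 113 and the reporter main start in 107. Over all 215 inserts these counts were 194 and 184, so both shares were somewhat lower in the moved inserts, which was not tested. In 40 of these 132 the reporter's main start had no native read, and in 28 the native main start took under 1% of reporter starts.

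**Figure D3:**
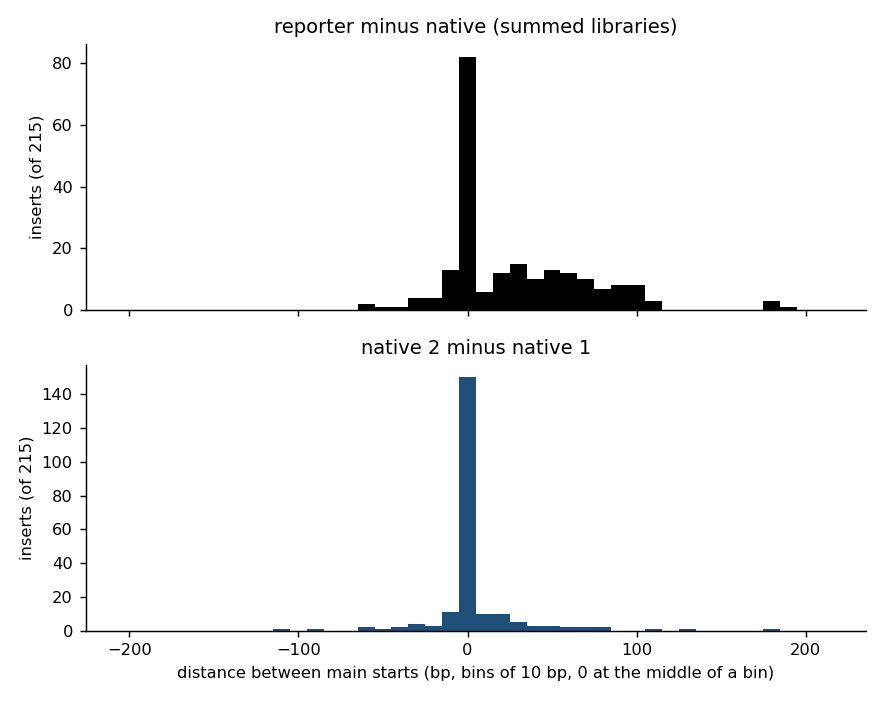
Distance between main starts in bp, in bins of 10 bp, for the reporter minus the native main start of summed libraries (top) and native library 2 minus native library 1 (bottom), over 215 inserts. The upper plot has 64 inserts at exactly 0 and a tail of downstream distances, with 57 inserts past 50 bp downstream and 3 past 50 bp upstream.

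Initiator sequence was shared by both kinds. As means over the 215 inserts, 70.9% of starts in both native libraries fell on a YR step, and 56.4% and 56.1% in the reporter. YR steps make up 21.6% of insert positions. With reads pooled over inserts, the shares more than 50 bp downstream of the middle were 68.4% and 68.2% natively. In the reporter they were 57.5% and 55.6%. Within 50 bp of the middle the pooled shares were 70.0% and 70.4% natively and 61.5% and 61.3% in the reporter. The reporter's far downstream starts thus fell on YR steps somewhat less often than its starts near the middle, a difference that was not tested. CA was the step at 112 native and 127 reporter main starts of 215. Where the native main start was no YR step the reporter kept it in 2 of 21 inserts, against 62 of 194 where it was one.

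The word TATAAA, sought on the insert's strand 22 to 36 bases before the start, preceded the native main start of 3 of 215 inserts (1.4%) and the reporter main start of the same number. It lies in that window of 753 of 35116 RefSeq promoters on GRCh38.p14 (2.14%). In 2 of the 3 inserts, TRAF3IP2-AS1 and chrX_31863003, the main start was the same base in native and reporter, and in the third, ELF1, it moved by 2 bp. These inserts were named after their values were seen, and 3 are too few to set against the rest.

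Starts lay further downstream in the reporter. The median over inserts of the mean start position was 201.3 and 200.7 natively and 227.5 and 223.9 in the reporter. Mean position differed in 174 of 215 inserts (80.9%) by limma at an adjusted p under 0.05, downstream in 169 (78.6%) and upstream in 5 (2.33%). The median difference over all 215 was 23.95 bp. Without reporter library 1 the count was 115, of which 112 were downstream.

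The shares on either side of the middle differed in opposite directions. More than 50 bp downstream of the middle lay 31.1% and 28.5% of reporter starts and 6.68% and 6.99% of native starts, as means over inserts. More than 50 bp upstream the order was opposite, with 2.81% and 3.01% in the reporter and 10.2% and 9.95% natively. Downstream far starts were higher in the reporter in 155 inserts (72.1%) and in the native libraries in 3 (1.4%). In 190 of 215 inserts both reporter libraries had the larger downstream share. Upstream far starts were higher natively in 129 inserts (60.0%) and in the reporter in 12 (5.58%). Of those 129, 98 had a larger measured share in both native libraries, and 24 had no native upstream read at all, where the pseudocount of 0.5 reads over few native reads exceeds the reporter's share. The split by side was chosen after the values were seen.

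Both sides together, far starts were called in 134 of 215 inserts (62.3%), in 117 higher in the reporter (54.4%) and in 17 natively (7.91%). This count moved with depth and with single libraries. It was 35 with profiles thinned to 20 reads, 86 without reporter library 1, 75 without reporter library 2, and 185 and 167 without native library 1 or 2. With 1 library of a kind left, the spread comes from the other kind alone. The direction also depended on the far limit: with far set at 100 bp the calls were split almost evenly between reporter and native. All 17 inserts called natively at the 50 bp limit had native far reads and a higher mean native share. Across inserts the native and reporter far shares had a Spearman correlation of 0.44 (n = 215), beside 0.865 between the native and 0.992 between the reporter libraries, all read on the same inserts.

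**Figure D4:**
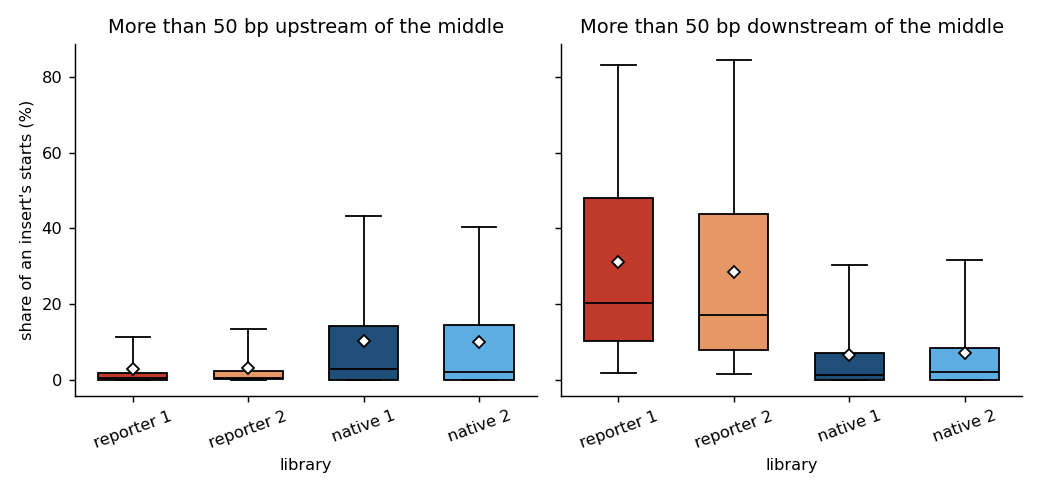
Share of an insert's starts (%) more than 50 bp upstream (left) or downstream (right) of the middle position in each library, over 215 inserts. Boxes span the quartiles with the median as a line, whiskers reach the 5th and 95th percentiles, and diamonds are means, which stand at 31.1% and 28.5% in the reporter and 6.68% and 6.99% natively on the downstream side.

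Starts were spread over more bases in the reporter. The effective number of start positions, the inverse of the chance that a pair of reads share a start, had medians of 13.4 and 13.5 in the reporter and 7.63 and 8.14 natively. It differed in 145 of 215 inserts (67.4%), with 131 broader in the reporter (60.9%) and 14 broader natively (6.51%), by limma. The median log2 difference was 0.81. The count was 19 with profiles thinned to 20 reads, 53 without reporter library 1, 67 without reporter library 2, and 181 and 173 without native library 1 or 2.

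The difference in profile moved with how much RNA the reporter made. Among the 72 inserts with the fewest reporter reads (130 to 34588 in both libraries together) the median distance from the native profile was 41.4 bp, and 45.6% of reporter starts were far at the median. Among the 72 with the most reads (151309 to 4019732) the distance was 21.3 bp and the far share 14.4%, against a native far share of 13.6%. The sides still differed in these 72. The median share far downstream was 11.4% in the reporter and 2.54% natively, and far upstream 0.522% and 1.38%. With the inserts with at least 20 DNA reads split into 3 near-equal groups by RNA per DNA, the median distance was 42.0 bp in the lowest, 21.8 bp in the middle and 21.0 bp in the highest. The Spearman correlation of distance with reporter RNA per DNA was -0.445 over 214 inserts, and over 215 it was -0.315 with native reads and 0.119 with GC content. The part of reporter level in the difference was not tested.

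Genomic place made less difference to the medians. The median distance was 23.6 bp for 95 inserts at a same-strand transcript start, 29.6 bp for 45 at an opposite-strand start and 27.9 bp for 75 near none. The main start was kept in 24, 13 and 27 of them. Mean position was downstream in the reporter in 71 of 95, 36 of 45 and 62 of 75, beside 169 of all 215. Breadth was greater in the reporter in 57 of 75 inserts near no transcript start, 25 of 45 at an opposite-strand start and 49 of 95 at a same-strand start, beside 131 of all 215. The difference between these classes was not tested.

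Among inserts whose libraries of a kind lay under 10 bp apart, those most alike in native and reporter included focused promoters. PTMA, which encodes the abundant nuclear protein prothymosin alpha, lay at chr2:231708328-231708677 over the annotated start and its first exon. The middle position took 72.7% and 74.1% of its reporter starts and 72.7% and 79.0% of its native starts, so the groups overlapped. Its effective positions were 1.87 and 1.8 in the reporter and 1.87 and 1.59 natively, a log2 difference of 0.09 (SE 0.11, limma adjusted p = 0.477). Its far starts did pass, higher in the reporter by 3.14 on the log2 scale (SE 1.05, limma adjusted p = 0.0387). The far shares were small, 1.69% and 1.14% in the reporter and 0.333% and 0% natively, on 300 and 981 native reads. With so few native far reads, the size of this difference depends on the pseudocount of 0.5 reads. TUT1, a terminal uridylyltransferase, lay at chr11:62591376-62591725. It kept not only its main base, with 24.5% and 24.9% of reporter and 29.6% and 35.4% of native starts, but also a second group far upstream. That group held 24.7% and 21.4% of reporter and 29.2% and 19.3% of native starts, values that overlap, and the mean position differed by -0.58 bp (SE 3.82, limma adjusted p = 0.894). It was nevertheless broader in the reporter, by 0.57 on the log2 scale (SE 0.19, limma adjusted p = 0.0464).

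Small distances did not always mean the same bases. ELF1, which encodes an ETS-family transcription factor, lay at chr13:41061237-41061586. Its native libraries put 87.6% and 89.0% of starts on the middle position, where the reporter put 9.27% and 9.5%. The reporter placed 27.4% and 26.8% of starts 2 bp upstream, against 6.98% and 5.79% natively, and nearly as many, 26.1% and 27.0%, 1 bp upstream. Its effective positions were 5.85 and 5.8 in the reporter and 1.3 and 1.26 natively, a log2 difference of 2.19 (SE 0.1, limma adjusted p = 0.000606). POLR2H, a subunit shared by the nuclear RNA polymerases, had its reporter main start at position 254 and its native one at the middle, with a profile distance of 5.5 bp. Its native libraries already had 37.4% and 29.3% of starts far downstream, beside 44.5% and 37.5% in the reporter. The other 4 of the 8 closest inserts were at the opposite-strand starts of ABT1 (chr6_26596785), PYGB (chr20_25247969) and ENSG00000277332 (chr8_142638466) and in an intron of C1orf100 (chr1_244370370).

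Of the 8 inserts with the largest distances among the 130 whose libraries of a kind lay under 10 bp apart, 7 had their reporter main start 50 to 193 bp downstream of the native one. SLC39A3, a zinc transporter, lay at chr19:2739870-2740219 with its annotated start at the middle position. Natively 48.3% and 45.3% of starts were at that base, and in the reporter 1.84% and 0.714%. The reporter put 82.3% and 88.3% of starts more than 50 bp downstream, where the native libraries had 0.196% and 0.318%. The groups were far apart, and mean position was 277.9 and 281.1 in the reporter and 207.9 and 208.2 natively, a difference of 71.44 bp (SE 2.82, limma adjusted p = 9.46e-05). Its reporter reads were few, 2887 and 2380, with 0.216 RNA reads per DNA read, beside a median of 1.35 over 247 inserts.

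ZSCAN29, a zinc-finger gene, lay at chr15:43370876-43371225. The middle position took 38.7% and 28.9% of native and 4.33% and 3.08% of reporter starts. The reporter had no strong main start: its effective positions were 43.6 and 39.8, against 5.13 and 6.57 natively, a log2 difference of 2.84 (SE 0.18, limma adjusted p = 0.000903). With 0.12 RNA reads per DNA read it too was weak in the reporter. TMEM219, which encodes a membrane protein, had 94.0% and 90.4% of reporter starts far downstream and none natively, on 911 and 625 reporter reads. ZXDC, another zinc-finger gene, had 89.2% and 77.9% far downstream in the reporter and 2.3% and 2.25% natively, on 883 and 1121 reporter reads.

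Displacement also occurred in inserts with strong reporter transcription. SCRN3, at chr2:174395593-174395942, had 142396 and 116052 reporter reads and 11.1 RNA reads per DNA read. Its reporter starts lay 89.0% and 85.0% far downstream, against 19.9% and 28.0% natively, where a further 35.7% and 33.6% were far upstream. The reporter's main base, position 267, was already used natively for 3.57% and 9.91% of starts. Effective positions were 6.83 and 7.31 in the reporter and 15.9 and 17.5 natively, so this insert was narrower on the plasmid, with a log2 difference of -1.24 (SE 0.15, limma adjusted p = 0.00245).

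MIR223HG, the host gene of the myeloid microRNA miR-223, lay at chrX:66015149-66015498 and had 281524 and 224780 reporter reads. Of its native starts 54.0% and 53.2% were far upstream, with the main one at 98. The reporter had 0.138% and 0.204% there and 93.0% and 91.2% far downstream, with the main start at 291. Mean position was 286.9 and 285.5 in the reporter and 168.4 and 167.7 natively, a difference of 118.16 bp (SE 2.09, limma adjusted p = 1.43e-05). Also among these 8 was chr21_33948086, in an intron of LINC00649, which kept its main base (22.6% and 23.9% of reporter and 25.5% and 23.2% of native starts).

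**Figure D5:**
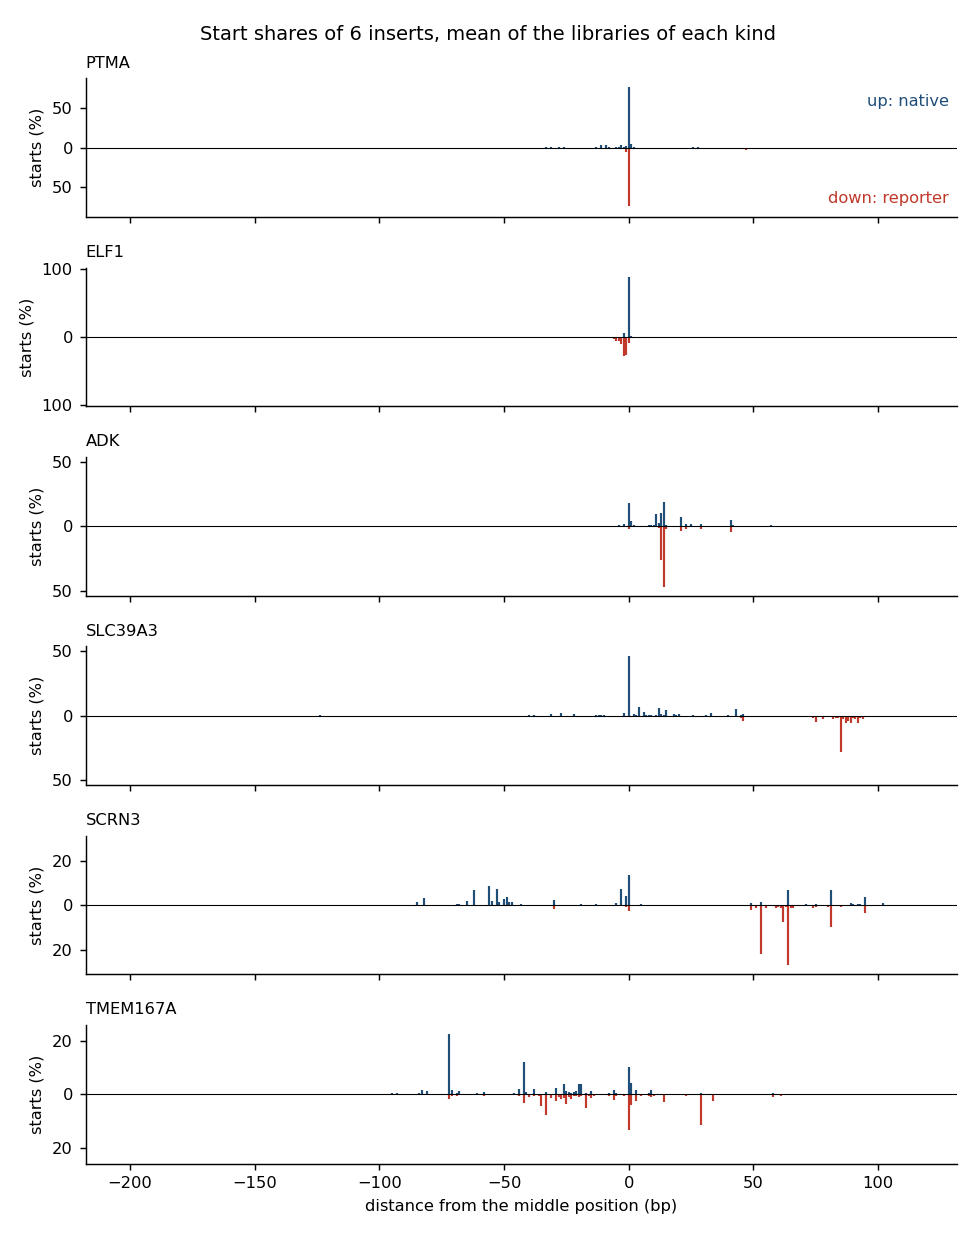
Start shares (%) by distance from the middle position for PTMA, ELF1, ADK, SLC39A3, SCRN3 and TMEM167A, native upward in blue and reporter downward in red, each the mean of its 2 libraries. The single base of PTMA is the same in both, ADK keeps its base at position 217 with fewer others, and SLC39A3 and SCRN3 have reporter starts downstream.

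Few inserts moved upstream. The largest shift was in chr12_124573890, an intergenic insert with mean positions of 175.1 and 177.6 in the reporter and 199.7 and 195.2 natively. It had 36.5% and 32.0% of reporter starts far upstream and 0% and 0.971% natively, a shift of -21.13 bp (SE 3.23, limma adjusted p = 0.00349). The others were chr14_36971412 (SLC25A21 intron, -11.6 bp), PSENEN, a gamma-secretase subunit (-10.29 bp), chr1_89994986 (opposite ZNF326, -8.12 bp) and chr1_209827840 (opposite UTP25, -7.72 bp). The last 3 lost the call without either reporter library, the last 2 also with the replicate number as a block (3 upstream calls in all, not 5), and chr1_89994986 without native library 2. Their adjusted p values by limma were 0.0178, 0.0348 and 0.0348. At the other end, chr2_15555914, opposite NBAS, had mean positions of 277.0 and 280.8 in the reporter and 136.7 and 113.6 natively, a shift of 153.73 bp on 20 and 45 native reads. Shifts of 127.06 and 121.82 bp followed in chr16_66549933 (opposite TK2, 24 and 27 native reads) and chr5_42993534 (36 and 35 native reads).

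Some inserts had fewer far starts in the reporter, and in TMEM167A and TENT5A most native far starts lay upstream. TMEM167A, at chr5:83077205-83077554, shares its promoter region with XRCC4, a DNA repair gene on the opposite strand. Its native main start at 131 held 25.1% and 20.2% of starts and only 1.34% and 1.84% in the reporter. All far starts were 37.5% and 33.2% natively and 10.3% and 10.6% in the reporter, a log2 difference of -2.23 (SE 0.4, limma adjusted p = 0.00359), which ended without reporter library 2. It reversed to 2.63 with far set at 100 bp and to 1.41 for the downstream side alone. TENT5A is a poly(A) polymerase family gene, and the middle of its insert lay upstream of the annotated start, at -463 bp. The insert had 64.1% and 52.0% of native starts far upstream and 2.02% and 3.17% in the reporter, on 39 and 25 native reads. Its reporter had 16.2% and 13.5% far downstream where no native read lay, so its difference of -2.71 for both sides was 3.46 for the downstream side alone. The other inserts with more native far starts, by the naming rule, were chr9_65385490, chr11_124171085 and ENSG00000268189, with 21 to 58 native reads per library. The middle of the last lay at -452 bp from its annotated start.

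The inserts named for the largest gain in breadth used few bases natively, but naming by reporter minus native itself favours low native values. Their native breadth is therefore no separate result. ZSCAN29, described above, was named by the same rule. The insert chr12_93315278, opposite ENSG00000257512, had 37.7 and 32.8 effective positions in the reporter and 3.58 and 3.9 natively, a log2 difference of 3.23 (SE 0.15, limma adjusted p = 0.000606). ENSG00000287104, a non-coding gene opposite TBC1D14, had 26.4 and 25.0 against 3.38 and 3.24. Its level was 4580 and 4500 CPM (reads scaled to equal library totals) in the reporter and 4510 and 4520 natively. The main level test put it higher in the reporter, by 0.79 on the log2 scale (SE 0.18, edgeR adjusted p = 0.00564), against 0.01 with library totals. The profiles of its 2 reporter barcodes lay 26.9 bp apart, however, as far as native from reporter (26.8 bp), so its summed reporter profile joins 2 unlike ones. Introns of LRRN2 (chr1_204672958) and MAN1A1 (chr6_119312126) had 24.4 and 31.0 against 3.8 and 3.04, and 29.3 and 32.3 against 2.98 and 5.61.

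The opposite was seen at ADK, which encodes adenosine kinase, at chr10:74176547-74176896. Its main base, position 217, was the same in both, but took 46.6% and 47.4% of reporter and 18.1% and 19.8% of native starts. The middle position held 18.4% and 17.6% natively and 1.81% and 1.79% in the reporter. Effective positions were 3.38 and 3.42 in the reporter and 9.56 and 9.98 natively, a log2 difference of -1.52 (SE 0.15, limma adjusted p = 0.00189). RNF32, a RING-finger gene, had 5.45 and 5.08 against 14.6 and 25.8, and SCRIB, a cell polarity gene, 7.45 and 7.67 against 22.7 and 20.4. The others named as broader natively, by the naming rule, were chr20_62485523 and chr3_53073509. The call for RNF32 ended without either reporter library, and that for chr3_53073509 without reporter library 2.

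The amount of RNA per insert was only loosely related between plasmid and chromosome. Native reads and reporter RNA per DNA had a Spearman correlation of 0.296 and a Pearson correlation of 0.316 on the log scale over 248 inserts. With reporter RNA not divided by DNA the Spearman correlation was 0.258. The native libraries agreed at 0.95 and the reporter RNA libraries, also not divided by DNA, at 0.994 (Spearman, 250 inserts). Reporter RNA itself followed DNA reads at 0.625 (Spearman, 248 inserts), an amount that the reporter libraries may share. By edgeR's quasi-likelihood test the relative level differed in 81.2% of the 250 inserts, 109 higher in the reporter (43.6%) and 94 natively (37.6%). The split depends on the scaling. It was 100 to 101 with RLE size factors, 70 to 127 with library totals, and 83 to 113 of 248 with reporter reads divided by DNA reads, and the median difference was 0.19, 0.02, -0.59 and -0.37 on the log2 scale. The sign was the same under the 5 scalings in 194 of 250 inserts. Level differences also followed the amount of plasmid, with a Spearman correlation of 0.576 with DNA reads. Values divided by DNA therefore stand beside most of the inserts named for level.

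Level calls by genomic place were as follows. Of 96 inserts near no transcript start, 50 were higher in the reporter and 23 natively, with a median of 0.87. Of 101 at a same-strand start, 34 were higher in the reporter and 49 natively, with a median of -0.45, and of 53 at an opposite-strand start 25 and 22, with a median of 0.48. The difference between these classes was not tested. The intron of FAM156A (chrX_52935101) had 38900 and 34100 CPM in the reporter and 1480 and 1280 natively, a log2 difference of 5.51 (SE 0.2, edgeR adjusted p = 1.1e-06) on the TMM scale, 4.73 with library totals as in these CPM, and 3.97 divided by DNA. LINC03011, a long non-coding RNA gene, had 37900 and 37300 against 3100 and 4870, a difference of 4.02 (2.15 by DNA). The others named as higher in the reporter were chr8_142638466 (5.51, 2.17 by DNA) and chr19_48741729 at IZUMO1 (5.45, 3.9 by DNA). Also named were chr1_36151038 in an intron of TRAPPC3 (4.56, 3.5 by DNA) and chr12_109461377 in an intron of KCTD10 (4.27, 2.76 by DNA).

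At the low end, several inserts had little plasmid DNA. ADAMTS14, SNRK and CERS2 stood lowest of all, at -13.62, -13.6 and -12.68, with 112, 39 and 411 DNA reads and under 20 reporter reads in a library. NRBP2, a pseudokinase gene, had 8.38 and 6.21 CPM in the reporter and 13800 and 14300 natively, a log2 difference of -10.12 (SE 0.31, edgeR adjusted p = 8.38e-07), on 1083 DNA reads where the median insert had 44354. Divided by DNA the difference was -4.73. ANKRD31, a meiotic gene, had 1.09 and 3.92 against 4430 and 4710, on 72 DNA reads, and its difference of -10.05 became -1.08 with DNA and no longer passed (edgeR adjusted p = 0.0635). RAB12, a small GTPase of vesicle traffic, went from -7.48 to -1.65 on 721 DNA reads. chr22_50170148 and chr4_87006882 (opposite AFF1) stood at -8.13 and -7.18, or -5.31 and -4.16 by DNA, and chr17_67993899 (opposite C17orf58) had 0 DNA reads.

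Housekeeping lists contributed 6 inserts, all at same-strand starts and all tested, since the ribosomal protein, histone, immediate early, translation factor and erythroid lists had none. PSMG4, a proteasome assembly chaperone and the 1 member of 35 listed, was displaced: the middle position took 22.6% and 20.0% of native and 0.132% and 0.0311% of reporter starts. Its mean position differed by 41.18 bp (SE 2.51, limma adjusted p = 0.000236). NDUFC1, a subunit of respiratory complex I and 1 of 37 listed, had its main start at the middle position natively and at 190 in the reporter. Its mean positions of 190.9 and 190.0 in the reporter and 174.3 and 186.2 natively did not pass (10.19 bp, SE 4.86, limma adjusted p = 0.108). SF3B3, a component of the splicing factor SF3b and 1 of 31 listed, was weak in the reporter, with 99.4 and 95.9 CPM against 22400 and 21500 natively, a log2 difference of -7.03 (-5.82 by DNA).

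CDC26, a subunit of the anaphase-promoting complex and 1 of 20 listed, was among the inserts that kept their main start. The middle position took 28.1% and 27.1% of its reporter and 30.5% and 31.2% of its native starts, with 16.5% and 16.1% far downstream in the reporter against 0.39% and 2.52%. Its level difference of 1.79 turned to -0.69 when divided by DNA. MED23, a Mediator subunit, also kept the middle position, with 13.2% and 13.4% in the reporter and 14.9% and 16.6% natively, and effective positions of 17.2 and 18.6 against 14.8 and 14.9 (limma adjusted p = 0.138). TAF9B, a subunit of the general transcription factor TFIID, moved its main start by 15 bp to 218. Its middle position fell to 11.1% and 13.4% in the reporter from 32.7% and 30.2%, and its effective positions rose from 6.55 and 7.69 to 16.6 and 17.7, a log2 difference of 1.27 (SE 0.16, limma adjusted p = 0.00276). Of the 6, the mean position passed in PSMG4, CDC26 and MED23, all downstream in the reporter, beside 78.6% of all inserts.

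A second table that the authors made from the same libraries keeps positions 93 to 247 only. In it 201 inserts had enough reads, the median distance was 11.6 bp against 4.61 bp between the native and 1.55 bp between the reporter libraries, and 81 main starts (40.3%) were the same. Mean position was downstream in the reporter in 106 inserts and upstream in 16. The native and reporter profiles thus differed beyond the distance between libraries also in this inner window, and by less than over its whole length.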

How the data were processed

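The authors deposited, per the file headers, 1 row per barcode of an insert, with counts of RNA and DNA reads and the fraction of RNA reads that start at each position. The submitters' processing notes name STAR 2.7.9a and hg38; further steps are not given in the sources used here. Fractions times counts lay within 0.05 of a whole number for 99.95% or more of nonzero values and were rounded to reads. The table stacks 4 blocks without a sample column, assigned by the order of the names it carries, on which the reporter replicate numbers rest alone. The csRNA blocks had no DNA reads and equal RNA counts in 1000 of 1000 rows of the episomal and lentiviral tables, and were taken once per insert. Reporter barcodes, 2 per insert, were summed.

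Position 203 was set as the middle of the named region, where 70.8% of native and 55.9% of reporter starts fell on a YR step, against 26.4% and 24.5% at the next best offset. Levels were tested with edgeR 4.0.16 (quasi-likelihood, TMM, mean of at least 10 counts). Mean start position, far starts (log2 of far + 0.5 over near + 0.5 reads, far over 50 bp from 203) and log2 effective positions were tested with limma 3.58.1 (eBayes with trend) in R 4.3.3, for inserts with at least 20 reads in each library. Adjusted p is Benjamini-Hochberg over all inserts tested, called under 0.05. Differences are reporter minus native. Distances, main starts and correlations carry no test. Alternatives were other scalings, DESeq2 1.42.0, filters, read minimums, far limits, pseudocounts, thinning, 1 barcode, a replicate block, the second table and each library left out. Named inserts, from those with at least 20 reads in each library, were the smallest and largest distances (8 each) among inserts whose libraries of a kind lay under 10 bp apart, the largest differences past the threshold (6 each way for level, with groups apart and a mean of at least 50 counts, 5 for the others), and list members; ADAMTS14, SNRK and CERS2 were named after their values were seen. The members and lists were chosen with earlier results of these data known. PCR reads carry no molecular identifiers, so read numbers overstate molecules. Tests were tried on simulated data. 1 insert that the naming rule selects is not reported here.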

Additional observations from a re-analysis of the deposited data

How the results depend on the processing

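Level calls of both directions together stayed within 1.5 times the number reported under all alternatives run. Calls by direction moved more, from 109 in the reporter and 94 natively to 70 and 127 with library totals. The 12 named level differences kept their direction wherever they were fitted. Division by DNA could not be run for chr17_67993899, which had no DNA reads. Other counts moved more. With at least 100 reads only 105 inserts were tested, and 90 differed in mean position, 72 in far starts and 73 in breadth, with 33 shared main starts. Thinned to 20 reads, 35 differed in far starts and 19 in breadth. From the authors' second table, 92 inserts differed in breadth, the distance was 11.6 bp, and far starts split 16 to 79, since its window holds far positions only upstream. Leaving out 1 library gave 115 to 189 calls for position, 75 to 185 for far starts and 53 to 181 for breadth. With far set at 100 bp the far split was 47 to 44. Single values that reversed were chr1_89994986 in the second table (14.38 bp), TMEM219 far starts there (-2.08), and, for upstream far starts alone, SLC39A3 (-4.59), chr22_50170148 (-0.82), ZSCAN29 (-0.95), chr4_87006882 (-0.98) and TMEM219 (-6.42). For downstream far starts alone chr9_65385490 was 0.52, TENT5A 3.46 and TMEM167A 1.41. With far set at 20 bp chr9_65385490 was 0.1, chr11_124171085 0.63, TENT5A 0.53 and ENSG00000268189 1.14, and with 100 bp TMEM167A was 2.63. Apart from what the windows hold, the cause was not tested. Same-numbered libraries did not deviate together (correlations -0.021, 0.044, 0.031 and -0.01 for level, position, far starts and breadth). With the replicate block 188, 166, 123 and 142 inserts passed, and of the named calls those for the position of chr1_89994986 and chr1_209827840 were lost. Native depth, a median near 100 reads, limits what can be seen: a start used by 1% of native transcripts can be missed.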
